A study of Drosophila melanogaster with 12 samples.

Results

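The 71 mitochondrial ribosomal protein genes described here are nuclear genes of Drosophila melanogaster whose symbols begin with mRpL (46 genes) or mRpS (25 genes). They were taken from a table of 17768 genes by symbol and by a mean of at least 10 counted fragments over 6 ovary RNA-seq libraries. Such a symbol was carried by 72 genes there. The one left out, mRpL53, had 0 fragments in every library, and 100% of its exon bases overlap CG33155 on the same strand, where fragments that fall in several genes were not counted. The member nearest above the minimum was mRpS6, with a mean of 703 fragments, so the minimum cut through no group of weakly counted genes. mRpS5 was not analysed here.

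Whole ovaries came from females 2 days after eclosion. In 3 libraries the germline driver nanos-Gal4 expressed the TRiP.HMS00473 hairpin against Sfmbt, and in 3 libraries it expressed a control hairpin against mCherry, which has no target in flies. Sfmbt is a partner of the DNA-binding protein Pho in a Polycomb complex. One hairpin line was used, and the somatic follicle and sheath cells remain in the dissected ovaries, so fewer cells of a type and less RNA per cell cannot be told apart. Chromatin binding was measured in ovaries with anti-GFP on GFP-Sfmbt knock-in chromatin, with anti-Pho on yw chromatin, and with anti-GFP on untagged Oregon-R chromatin as the control, with 2 samples each.

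The mitochondrial ribosome translates the few proteins that the mitochondrial genome encodes, all of them core subunits of the respiratory chain and the ATP synthase. Its 2 ribosomal RNAs are transcribed from the mitochondrial genome, while its proteins are encoded in the nucleus, made in the cytosol, imported and assembled on the RNAs into a large and a small subunit. During oogenesis the germline builds up the large stock of mitochondria that the egg passes on.

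Libraries held 34057506 to 51297961 counted fragments. Sfmbt was at 43.8, 43.8 and 36.7 CPM (counts scaled to library size, adjusted between libraries by the TMM method) in Sfmbt RNAi against 146, 122 and 123 CPM in mCherry RNAi. The summed CPM of 9 chorion genes, markers of late follicle cells, ran from 7547 to 20193 in Sfmbt RNAi and from 35271 to 50570 in mCherry RNAi, without overlap. That of 7 germline markers ran from 2446 to 2829 in Sfmbt RNAi and from 1847 to 2340 in mCherry RNAi, also without overlap. The 7 did not move together: tested singly, 3 were higher, 1 was lower and 3 did not pass. For 6 vitelline membrane genes, markers of mid-stage follicle cells, the sums overlapped. They were 7209 to 10885 CPM in Sfmbt RNAi and 8622 to 10867 CPM in mCherry RNAi, and 0 of the 6 passed. Gut digestive enzyme markers summed to between 1.09 and 176 CPM in Sfmbt RNAi and to between 209 and 2263 CPM in mCherry RNAi, with gammaTry at 0 in every library. Tested singly, 0 of 10 gut genes passed. Muscle sheath markers overlapped between the groups, at 878 to 2087 CPM in Sfmbt RNAi and 1502 to 1890 CPM in mCherry RNAi. The sums of hemocyte, fat body and somatic gonad markers overlapped as well. The part of these other cells in the changes below was not tested, except for the chorion level, which enters one alternative fit.

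Most mitochondrial ribosomal protein genes were not called, and every fitted change was below 2-fold. Of the 71 genes 16 were lower and 3 were higher in Sfmbt RNAi, and 52 did not pass an adjusted p of 0.05 (edgeR's quasi-likelihood test, Benjamini-Hochberg adjustment over 9667 tested genes). Among all tested genes 19.4% were lower and 15.2% were higher, or 34.7% in either direction, against 22.5%, 4.23% and 26.8% of the members. The share of members that fell was thus near that of all genes, and the share that rose was below it. Not passing the test does not show that a gene was unchanged. No member had a fitted change of 2-fold or more. Log2 fold changes of Sfmbt RNAi over mCherry RNAi ran from −0.73 to 0.37, with a median of −0.06 against −0.04 over all tested genes. With upper-quartile scaling 12 members were lower and 5 higher, so that 29.4% of the member calls were higher, against 15.8% with TMM. Over all tested genes this share moved the same way, to 54.1% from 43.9% with TMM.

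By the interquartile range, the changes of the members were less spread than those of all genes, as were those of 2 related lists. This range was 0.312 on the log2 scale for the members and 0.599 for all tested genes. It was 0.295 for nuclear respiratory chain genes and 0.372 for cytoplasmic ribosomal protein genes. These 2 lists held 3 and 4 genes with a fitted change of 2-fold or more, and the members 0. A fitted change smaller than 1.5-fold was found for 95.8% of the members, against 73.4% of all tested genes. Among 4186 other tested genes with mean levels between 16.4 and 110 CPM, the range that the members span, the share was 84.6%, the interquartile range was 0.483, and 40.8% were called. The 95% interval of the log2 fold change lay inside 1.5-fold in either direction for 57 of the 71 members, or 80.3%, against 45.3% of all tested genes, 65.9% of the genes in the same CPM range, 81.8% of nuclear respiratory chain genes and 76.1% of cytoplasmic ribosomal protein genes. The libraries of the 2 groups did not overlap for 25 members, with Sfmbt RNAi below mCherry RNAi in 19 and above it in 6. That is 35.2% of the members; among all tested genes 50.3% did not overlap, 27.6% with Sfmbt RNAi below and 22.6% with it above.

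All 19 calls ended when the chorion level of each library was added to the fit, a covariate that itself separates the groups; 118 genes in the whole table were then called, and the median member log2 fold change was −0.28 against −0.05 for all tested genes. The 16 falls all kept their sign with this covariate, with a median log2 fold change of −0.46 against −0.39 without it. Their standard errors were 2.24 times as large at the median. The 3 rises had a median of 0.05 against 0.35 without it. The median over all members was −0.06 without the covariate, so it moved down as a whole. The kept signs therefore cannot tell whether the falls go with the chorion level. The number of members called lower was 9 without mCherry RNAi replicate 2 and 8 without mCherry RNAi replicate 3, and none was called higher in either case. Over all tested genes the calls then numbered 1756 and 1931, against 3350 with all libraries. No member was called higher without Sfmbt RNAi replicate 3 either, where 11 were lower.

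**Figure D1:**
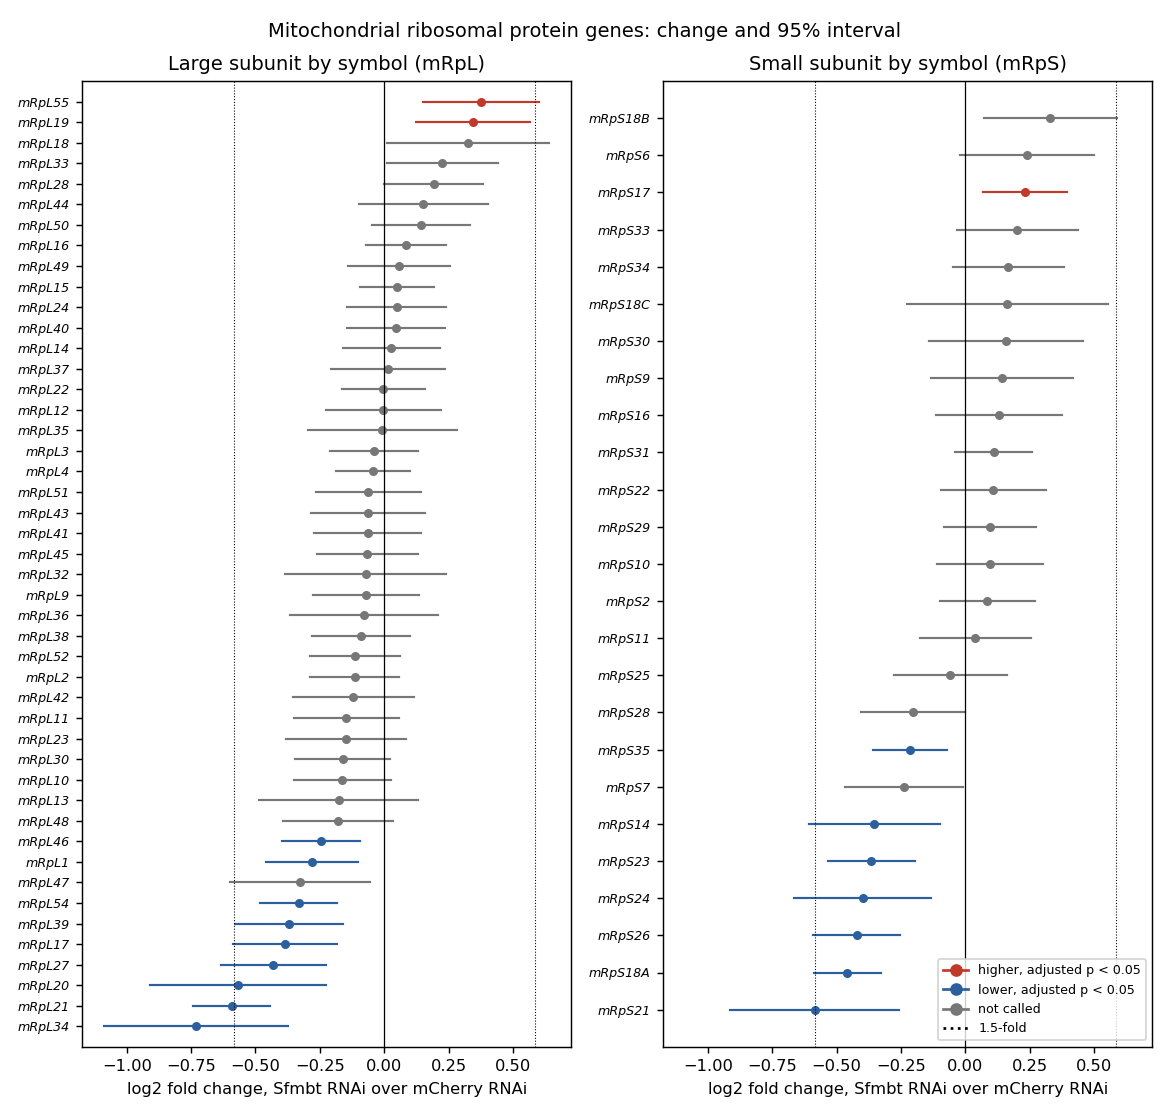
Log2 fold change (x axis, Sfmbt RNAi over mCherry RNAi) of each of the 46 mRpL genes and 25 mRpS genes (rows), with the 95% interval as a line; n = 3 libraries per group. Blue marks the 16 genes that were lower and red the 3 that were higher at an adjusted p under 0.05, and dotted lines mark 1.5-fold; 57 of the 71 intervals lie between the dotted lines.

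**Figure D2:**
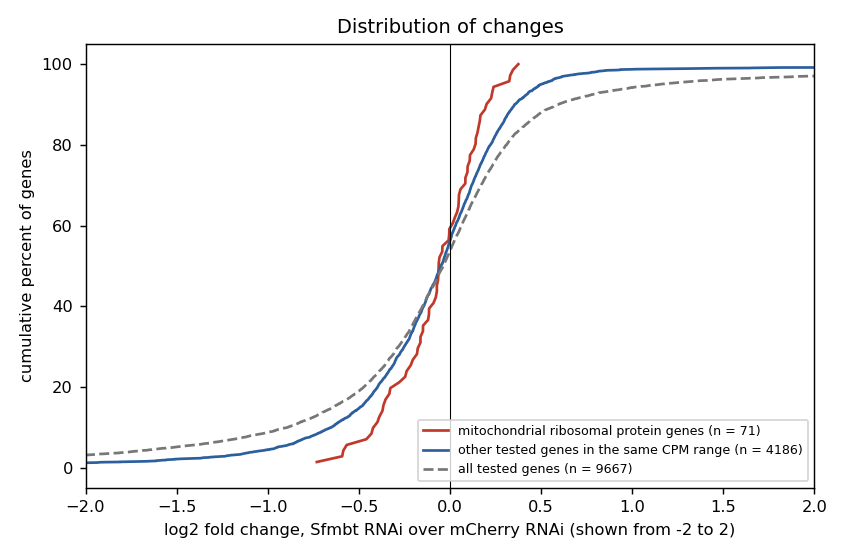
Cumulative percent of genes (y axis) by log2 fold change of Sfmbt RNAi over mCherry RNAi (x axis, shown from −2 to 2) for the 71 members, for 4186 other tested genes in the members' CPM range and for all 9667 tested genes. The members' curve is the steepest and lies within −0.73 and 0.37.

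Among large subunit genes 9 of 46 (19.6%) fell and 2 (4.35%) rose, against 19.4% and 15.2% of all tested genes. The median log2 fold change of the 46 was −0.07. mRpL34, the counterpart of a small bacterial protein of the large subunit, had the lowest fold change of all members. It was at 22.5, 21.7 and 15.6 CPM in Sfmbt RNAi against 29.5, 35.2 and 34.5 CPM in mCherry RNAi. Every Sfmbt RNAi library was below every mCherry RNAi library, replicate 3 the most, and the log2 fold change was −0.73 ± 0.15 (SE; edgeR adjusted p = 0.0105). The other members of this kind, mRpL32, mRpL33, mRpL35 and mRpL36, did not pass the test, with log2 fold changes of −0.07, 0.23, −0.01 and −0.08.

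mRpL21, which lies at 3L:19253290-19255061 on the minus strand, was one of the most uniform falls. Its levels were 47.7, 45.7 and 44.3 CPM in Sfmbt RNAi against 67.3, 72.3 and 67.9 CPM in mCherry RNAi. The groups stood well apart and varied little within themselves, for a level of 66.4% of that in mCherry RNAi (log2 fold change −0.59 ± 0.06 SE, edgeR adjusted p = 0.000867). mRpL20, whose bacterial counterpart binds the ribosomal RNA early in assembly, was at 45.4, 33.6 and 30.2 CPM in Sfmbt RNAi against 52.6, 54.2 and 54.8 CPM in mCherry RNAi. Here the Sfmbt RNAi libraries were spread widely below a tight mCherry RNAi group (edgeR adjusted p = 0.0227 for a log2 fold change of −0.57 ± 0.15 SE), and the call was lost without Sfmbt RNAi replicate 2, mCherry RNAi replicate 2 or mCherry RNAi replicate 3 (0.0709, 0.0738 and 0.0702 as adjusted p by edgeR).

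Around the peptidyl transferase centre, where peptide bonds are made, 1 of 5 genes (20%) fell, near the 19.4% of all tested genes. The gene was mRpL27, whose bacterial counterpart reaches toward that centre. It was at 35.6, 34.3 and 29.5 CPM in Sfmbt RNAi against 43.4, 47.2 and 43.3 CPM in mCherry RNAi, without overlap (log2 fold change −0.43 ± 0.09 SE, edgeR adjusted p = 0.00943). mRpL2, mRpL3, mRpL4 and mRpL16 had log2 fold changes between −0.12 and 0.08.

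For the stalk and the neighbouring site where translation factors bind, mRpL10, mRpL11 and mRpL12 were grouped here. Of these 3, 0 passed the test, where 34.7% of all tested genes did. mRpL54, which fell, was not placed in this group. mRpL12, which in flies is also needed for growth driven by Cyclin D, was at 83.4, 73.0 and 79.6 CPM in Sfmbt RNAi and 88.3, 75.5 and 72.8 CPM in mCherry RNAi. Both groups covered the same range, and the 95% interval of its log2 fold change was −0.23 to 0.22. For the region where the new protein leaves the ribosome, the 5 genes mRpL22, mRpL23, mRpL24, mRpL45 and mRpL47 were grouped here. They also gave 0 calls. mRpL17, which fell, was not placed in this group, so the count holds for the 5 named genes only. Of the 5, mRpL47 came nearest to the threshold, at 66.8, 58.9 and 49.5 CPM in Sfmbt RNAi against 68.2, 78.2 and 73.2 CPM in mCherry RNAi. Its groups did not overlap, but Sfmbt RNAi replicate 1 lay close below the lowest mCherry RNAi library (edgeR adjusted p = 0.065 for a log2 fold change of −0.33 ± 0.12 SE). Of 5 genes of the central protuberance, a feature of the top of the large subunit, 1 (20%) fell. That is near the 19.4% of all tested genes. The gene was mRpL46 (log2 fold change −0.25). mRpL18, mRpL38, mRpL40 and mRpL48 did not pass, with log2 fold changes of 0.33, −0.09, 0.05 and −0.18.

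The other large subunit genes that fell were mRpL17, mRpL39, mRpL54 and mRpL1, with log2 fold changes of −0.39, −0.37, −0.33 and −0.28. Of the 6 fits that each left out 1 library, 5 called mRpL17, 4 mRpL39 and 6 mRpL54, but 2 mRpL1 and 2 mRpL46. Those that rose were mRpL55 and mRpL19. mRpL55, which flies need to complete development, was at 21.3, 19.6 and 22.1 CPM in Sfmbt RNAi against 17.3, 15.8 and 15.4 CPM in mCherry RNAi (log2 fold change 0.37 ± 0.10 SE, edgeR adjusted p = 0.0218). mRpL19 was at 58.2, 48.3 and 55.4 CPM in Sfmbt RNAi against 46.5, 40.4 and 40.6 CPM in mCherry RNAi (log2 fold change 0.35 ± 0.09 SE, edgeR adjusted p = 0.0276). In both genes the lowest Sfmbt RNAi library was above the highest mCherry RNAi library by a small margin. Neither was called without mCherry RNAi replicate 2 (edgeR adjusted p = 0.0915 for mRpL55 and 0.115 for mRpL19), without mCherry RNAi replicate 3 (0.0905 and 0.112) or without Sfmbt RNAi replicate 3 (0.053 and 0.0563), and mRpL19 was also lost without Sfmbt RNAi replicate 1 (0.0542).

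Of the 25 small subunit genes 7 (28%) fell and 1 (4%) rose, against 19.4% and 15.2% of all tested genes. The median log2 fold change of the 25 was 0.10, with 15 values above 0 and 10 below. mRpS21, the counterpart of a bacterial protein of the platform beside the decoding site, fell the most. It was at 46.6, 44.6 and 33.8 CPM in Sfmbt RNAi against 55.0, 68.9 and 63.7 CPM in mCherry RNAi (edgeR adjusted p = 0.0176 for a log2 fold change of −0.59 ± 0.14 SE), and the call ended when mCherry RNAi replicate 2 or 3 was left out (0.0687 and 0.0586 as adjusted p by edgeR). Its platform neighbours mRpS6, mRpS11 and mRpS18C did not pass, with log2 fold changes of 0.24, 0.04 and 0.16.

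Of the 3 paralogs of the S18 family 1 fell and 2 did not pass, where 19.4% of all tested genes fell. mRpS18A, whose human counterpart sits in the large subunit, was at 44.8, 43.6 and 45.0 CPM in Sfmbt RNAi against 61.6, 60.8 and 61.0 CPM in mCherry RNAi. Both groups were very tight and stood apart by far more than their spread, at 72.7% of the mCherry RNAi level (log2 fold change −0.46 ± 0.06 SE, edgeR adjusted p = 0.00137). mRpS18B was at 33.8, 28.6 and 33.4 CPM in Sfmbt RNAi against 28.7, 24.3 and 23.2 CPM in mCherry RNAi. Its lowest Sfmbt RNAi library and highest mCherry RNAi library overlapped, and it was just outside the threshold (log2 fold change 0.33 ± 0.11 SE, edgeR adjusted p = 0.0529). It was called higher with each of the 3 other scalings (edgeR adjusted p = 0.025 to 0.0454), with DESeq2 (adjusted p = 0.0247), with a filter of 1 CPM and in 2 of the 6 fits without 1 library. mRpS18C had wider spread, at 23.3, 16.9 and 15.4 CPM in Sfmbt RNAi against 17.8, 15.9 and 15.9 CPM in mCherry RNAi (edgeR adjusted p = 0.483). Differences between these paralogs were not tested.

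mRpS26 was at 45.8, 48.2 and 41.5 CPM in Sfmbt RNAi against 61.1, 60.5 and 60.0 CPM in mCherry RNAi, without overlap (log2 fold change −0.42 ± 0.07 SE, edgeR adjusted p = 0.00515). mRpS24 was at 26.9, 25.7 and 22.1 CPM in Sfmbt RNAi against 29.3, 36.7 and 32.5 CPM in mCherry RNAi; the groups were closer (edgeR adjusted p = 0.0317 for a log2 fold change of −0.40 ± 0.11 SE). The mRpS24 call held in 2 of the 6 fits without 1 library; it was lost without Sfmbt RNAi replicate 2 or 3 or mCherry RNAi replicate 2 or 3 (0.0646, 0.078, 0.114 and 0.0807 as adjusted p by edgeR) and with upper-quartile scaling (0.0697). In the head of the small subunit 1 of 4 genes (25%) fell, against 19.4% of all tested genes. The gene was mRpS14 (edgeR adjusted p = 0.0416). Its levels were 35.2, 32.4 and 26.7 CPM in Sfmbt RNAi against 38.0, 42.1 and 40.1 CPM in mCherry RNAi. mRpS7, mRpS9 and mRpS10 had log2 fold changes of −0.24, 0.14 and 0.10 and did not pass. The mRpS14 call held in 1 of the 6 fits without 1 library, that without Sfmbt RNAi replicate 1, and was lost with upper-quartile scaling (edgeR adjusted p = 0.0937). Of the bases of mRpS14, 3.76% overlap CG32533 on the same strand and were not counted for either. mRpS23 fell as well (log2 fold change −0.36), in all 6 fits without 1 library. mRpS35 was called lower with all libraries (log2 fold change −0.22) but in 0 of these 6 fits and with 0 of the 3 other scalings.

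mRpS17 was the one small subunit gene that rose. It was at 34.6, 31.5 and 32.6 CPM in Sfmbt RNAi against 28.9, 27.6 and 27.6 CPM in mCherry RNAi, without overlap (edgeR adjusted p = 0.0385 for a log2 fold change of 0.23 ± 0.07 SE), and it lost its call in each of the 6 fits that left out 1 library.

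Genes for mitochondrial ribosomal proteins that go by other names gave a split as well. technical knockout (tko) encodes the counterpart of bacterial S12, which sits at the decoding site. It was at 33.8, 30.1 and 25.1 CPM in Sfmbt RNAi against 35.4, 41.9 and 40.0 CPM in mCherry RNAi, with the groups apart by a narrow margin (edgeR adjusted p = 0.0399 for a log2 fold change of −0.40 ± 0.12 SE). The tko call was lost with upper-quartile scaling and without Sfmbt RNAi replicate 2 or 3 or mCherry RNAi replicate 2 or 3. bonsai, which encodes the counterpart of S15, was at 87.6, 72.4 and 71.9 CPM in Sfmbt RNAi and 80.8, 67.9 and 72.0 CPM in mCherry RNAi, with overlapping groups (log2 fold change 0.07 ± 0.11 SE).

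**Figure D3:**
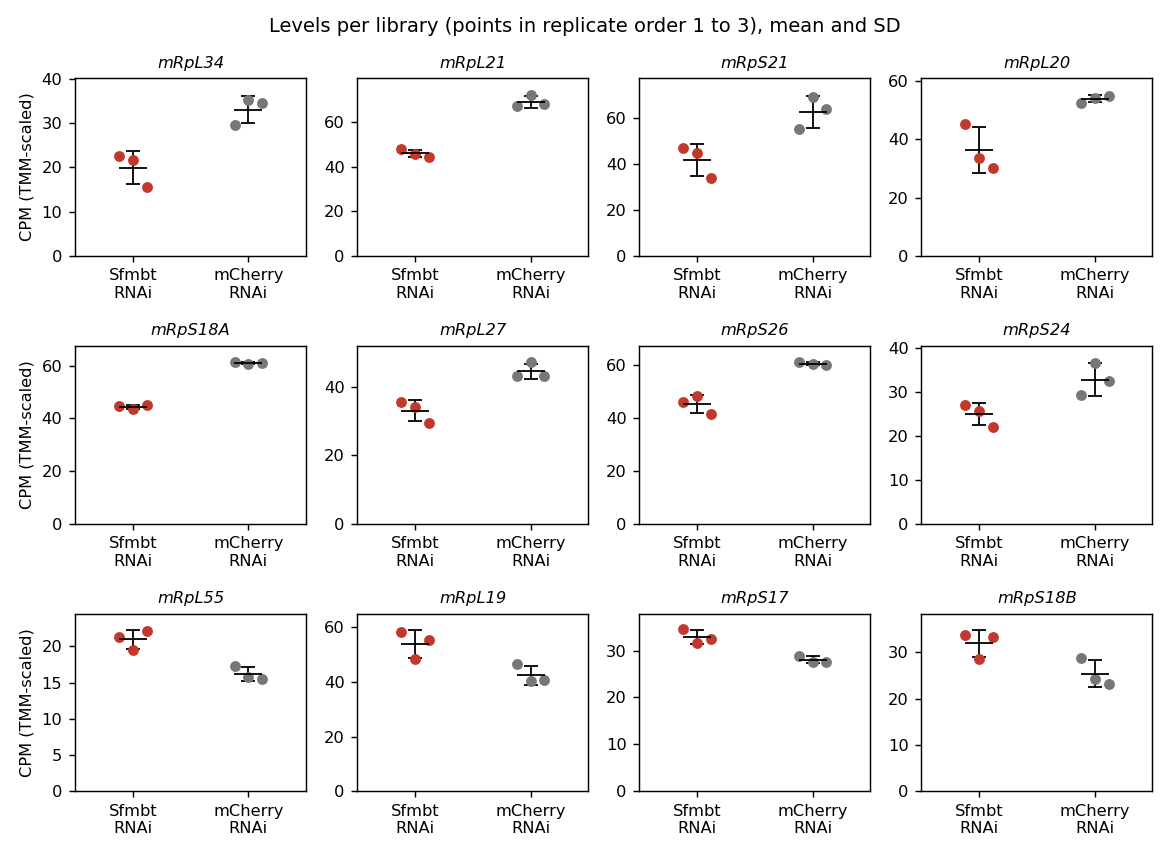
TMM-scaled CPM per library (y axis, from 0) of the 8 members with the lowest called log2 fold changes, of the 3 that were higher and of mRpS18B, with Sfmbt RNAi at the left and mCherry RNAi at the right of each panel; points are libraries, and the bar is the mean with its SD (n = 3 per group). The groups do not overlap in any panel except that of mRpS18B.

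Compared per length, as TPM (counts per exon length, scaled to the same total in each library), members were of similar abundance to each other. The mean TPM of the 71 genes ran from 48.7 (mRpL13) to 205 (mRpL12) in Sfmbt RNAi and from 35.1 (mRpS6) to 192 (mRpS21) in mCherry RNAi. The median was 92.8 TPM in Sfmbt RNAi and 73.4 TPM in mCherry RNAi. The member at the 90th percentile was 1.86 times as high as that at the 10th in Sfmbt RNAi and 2.28 times in mCherry RNAi. For cytoplasmic ribosomal protein genes these ratios were 5.71 and 7.85, at medians of 2197 TPM in Sfmbt RNAi and 1602 TPM in mCherry RNAi. That list includes paralogs at low levels, the lowest RpL37-2 at 6.79 TPM in Sfmbt RNAi and 0.0507 TPM in mCherry RNAi. Of all tested genes, 66.1% had a lower mean TPM than the lowest member, and 6.34% a higher one than the highest. mRpL12, mRpS21, mRpS18A and mRpS7 were the most abundant members over the 6 libraries, and mRpS6, mRpL13, mRpL11 and mRpL21 the least. mRpL13 shares 35.2% of its exon bases with CG10602 on the same strand, so its TPM, which divides by the whole length, is too low by an amount that was not measured.

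The balance between the subunits did not differ beyond its spread. Summed TPM of mRpL genes over that of mRpS genes was 1.85, 1.86 and 1.80 in Sfmbt RNAi and 1.86, 1.80 and 1.84 in mCherry RNAi, with means of 1.84 ± 0.03 in both groups (SD, n = 3). Counting mRpS18A and mRpS30 with the large subunit, where their human counterparts sit, gave 2.17 ± 0.02 in Sfmbt RNAi and 2.20 ± 0.05 in mCherry RNAi.

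The summed level of all members depended on what it was measured against. As a share of all TPM it was 7117, 6344 and 7216 TPM in Sfmbt RNAi against 6091, 5379 and 5462 TPM in mCherry RNAi, a ratio of 1.22 without overlap. With transcripts of the mitochondrial genome and chorion genes left out of the total, it was 8367, 7958 and 8334 in Sfmbt RNAi against 8254, 7897 and 7781 in mCherry RNAi, a ratio of 1.03 with overlap. Ratios within a library do not depend on this choice. Nuclear genes of the respiratory chain summed to 2.39, 2.38 and 2.26 times the members in Sfmbt RNAi and 2.35, 2.42 and 2.42 times in mCherry RNAi. Cytoplasmic ribosomal protein genes summed to 33.0, 31.7 and 28.3 times the members in Sfmbt RNAi and 29.3, 32.3 and 32.9 times in mCherry RNAi. In both cases the groups overlapped.

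RNA from the mitochondrial genome stood apart from the genes of the ribosome that translates it. Its coding transcripts summed to 7.33, 9.76 and 5.47 times the members in Sfmbt RNAi against 12.8, 16.8 and 16.4 times in mCherry RNAi, and the mitochondrial ribosomal RNAs to 11.5, 15.3 and 8.44 times in Sfmbt RNAi against 19.1, 25.8 and 23.6 times in mCherry RNAi. No Sfmbt RNAi library reached the lowest mCherry RNAi library in either ratio. The ribosomal RNA sum is in effect mt:lrRNA alone, at 60880 to 97210 TPM in Sfmbt RNAi and 116195 to 138802 TPM in mCherry RNAi. mt:srRNA was at 24.0 to 35.2 TPM in Sfmbt RNAi and 29.3 to 48.3 TPM in mCherry RNAi, with overlap. With 3 libraries against 3 the smallest two-sided exact permutation p is 0.1, so these ratios carry no call. Of 13 coding genes of the mitochondrial genome 11 were lower and 0 higher by edgeR, with a median log2 fold change of −1.49, and leaving out mCherry RNAi replicate 2 or 3 brought the number to 7; with the chorion covariate it was 0. mt:lrRNA, the RNA of the large subunit, had 58960, 70203 and 38336 CPM in Sfmbt RNAi against 99753, 131033 and 118507 CPM in mCherry RNAi (log2 fold change −1.06 ± 0.29 SE, edgeR adjusted p = 0.0269). mt:srRNA, that of the small subunit, was at 13.9, 15.1 and 8.95 CPM in Sfmbt RNAi against 15.0, 27.1 and 26.2 CPM in mCherry RNAi, with overlap (edgeR adjusted p = 0.0622). The libraries were made from polyA RNA, so the level of these RNAs also depends on their tails.

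**Figure D4:**
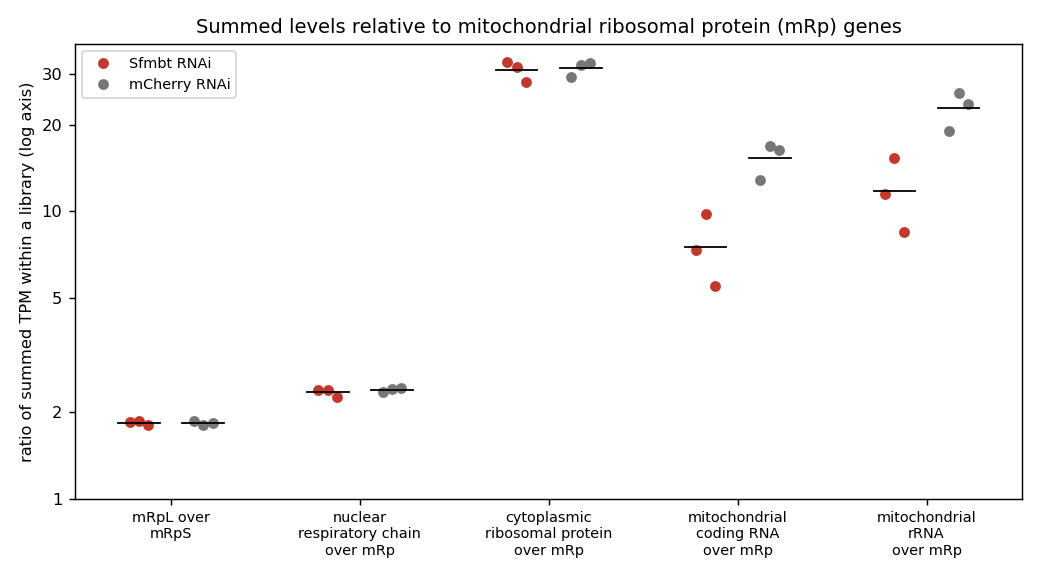
Ratios of summed TPM within each library (y axis, log scale): mRpL over mRpS genes, and 4 other gene groups over all mitochondrial ribosomal protein (mRp) genes, with Sfmbt RNAi left of mCherry RNAi; points are libraries and the line is the mean (n = 3 per group). The first 3 ratios overlap between the groups, and the ratios of mitochondrial coding RNA and of mitochondrial rRNA do not. The mitochondrial rRNA sum is in effect mt:lrRNA alone.

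Other nuclear genes of mitochondrial gene expression changed in both directions. Among all tested genes 15.2% rose and 19.4% fell. Of 9 translation factor genes 1 rose and 0 fell: mIF2, which helps to start translation, was at 24.3, 21.9 and 24.3 CPM in Sfmbt RNAi against 19.0, 17.1 and 18.3 CPM in mCherry RNAi (log2 fold change 0.37, edgeR adjusted p = 0.0173). mEFTu1, which brings charged tRNAs to the ribosome, had a log2 fold change of 0.38 and did not pass (edgeR adjusted p = 0.0515). Of 18 genes for mitochondrial aminoacyl-tRNA synthesis 2 rose and 0 fell, AspRS-m and IleRS-m, by 0.36 and 0.32 on the log2 scale. Of 13 genes of mitochondrial transcription and RNA processing 4 rose and 3 fell. bsf, an RNA-binding protein that stabilises mitochondrial messages, was at 361, 267 and 313 CPM in Sfmbt RNAi against 209, 164 and 177 CPM in mCherry RNAi (edgeR adjusted p = 0.00575 for a log2 fold change of 0.77 ± 0.14 SE). The 3 proteins of mitochondrial RNase P, which cuts tRNAs out of the primary transcripts, were split. scu fell (log2 fold change −0.64, edgeR adjusted p = 0.00165), as did mldr (−0.45, edgeR adjusted p = 0.00409), and rswl rose (0.29, edgeR adjusted p = 0.048). Of 4 genes that maintain mitochondrial DNA 1 rose, the polymerase gene PolG1 (0.30), and 1 fell, mtDNA-helicase (−0.65). Of 11 import and folding genes 2 rose and 0 fell, Tim17b and the import motor chaperone gene Hsc70-5 (0.72 ± 0.16 SE, edgeR adjusted p = 0.0145). The rises of mIF2, AspRS-m, IleRS-m, PolG1, Hsc70-5, Tim17b and rswl were each lost without mCherry RNAi replicate 2 and without mCherry RNAi replicate 3. AspRS-m and rswl were also lost without Sfmbt RNAi replicate 1 or 3, and rswl without Sfmbt RNAi replicate 2. bsf, scu, mldr and mtDNA-helicase were called in all 6 fits without 1 library.

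Of 88 cytoplasmic ribosomal protein genes 5 (5.68%) were higher and 2 (2.27%) lower by edgeR, with a median log2 fold change of 0.09. Among all tested genes 15.2% were higher and 19.4% lower. The 5 were RpS19b, RpS10a, RpS15Ab, RpL37-2 and RpL22-like, each by its symbol a paralog of another gene in the list. The numbers higher and lower were 22 and 13 with DESeq2 and 5 and 11 without Sfmbt RNAi replicate 1. Of 66 nuclear respiratory chain genes 4 (6.06%) were higher and 11 (16.7%) lower, with a median of −0.03. Those higher were COX7A, SdhB, ND-75 and ATPsynepsilonL, the last by its symbol a paralog. For this list the numbers higher and lower depended on the fit. These numbers were 1 and 4 without mCherry RNAi replicate 2, 3 and 4 without mCherry RNAi replicate 3, 3 and 5 without Sfmbt RNAi replicate 2, 3 and 7 without Sfmbt RNAi replicate 3, and 4 and 5 with upper-quartile scaling. With the chorion covariate 2 cytoplasmic ribosomal protein genes were higher and 0 lower, and 0 genes of the other nuclear lists above were called.

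The members are scattered over the 5 large chromosome arms. On 3L 7 of 16 members (43.8%) fell and 0 rose, where 19.3% of all tested genes of that arm fell and 14.6% rose. Of these falls, mRpL21 and mRpS26 were called in all 6 fits without 1 library. mRpL17, mRpL39, mRpL20, mRpL46 and mRpS35 were called in 5, 4, 3, 2 and 0 of them. On 3R 4 of 21 (19.0%) fell and 2 rose, where 19.1% of tested genes fell and 13.5% rose. On 2L 2 of 12 fell and 0 rose (21.5% and 13.2% of tested genes), on 2R 2 of 11 fell and 1 rose (20.2% and 12.3%), and on X 1 of 11 fell and 0 rose (17.2% and 23.1%).

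Most members start back to back with another gene. For 51 of the 71, or 71.8%, a gene on the opposite strand starts within 500 bases upstream, at a median distance of 279 bases; of all tested genes 32.8% have such a neighbour. For 50 members the neighbour was tested. Of these 50 neighbours 14 fell and 10 rose (19.4% and 15.2% of all tested genes), while 26 did not pass. Of these members 16 were called, and in 5 pairs both genes were called. Among all tested genes 34.7% were called. The share of such pairs among other divergent pairs was not computed. In 4 of the 5 pairs both genes fell: mRpL20 with Icmt, mRpL27 with CG15435, mRpS24 with Apc2 and mRpL54 with CG15653. In the other, mRpL21 fell and rept, a chromatin remodelling ATPase gene that starts 279 bases away, rose by 0.37 on the log2 scale. Larger changes of a neighbour often stood beside a member that did not pass. Snr1, a subunit of the Brahma remodelling complex, had a log2 fold change of −0.81, and Taz, which remodels cardiolipin in mitochondria, one of −0.85; their partners mRpL44 and mRpL18 had 0.15 and 0.33. mei-P22, needed for meiotic recombination, rose by 1.28, and its partner mRpL50 had 0.14.

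**Figure D5:**
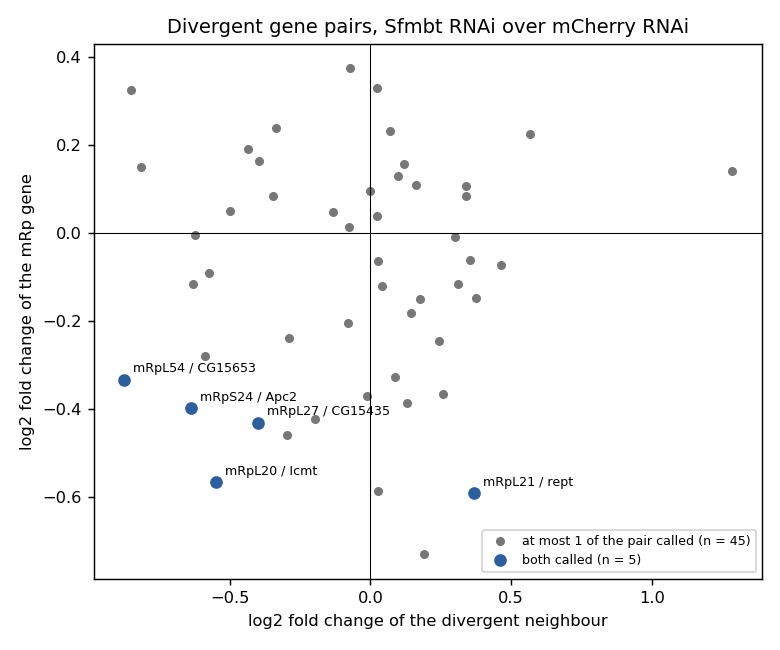
Log2 fold change (Sfmbt RNAi over mCherry RNAi) of each mitochondrial ribosomal protein gene (y axis) and of its divergent neighbour (x axis) for the 50 pairs with a tested neighbour; each point is a pair. Blue marks the 5 pairs with both genes called, and in 4 of these both fell. In all, 16 members with a tested neighbour were called. The neighbours span a wider range than the members.

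The authors' deposited peak table assigns 352 binding summits of Pho and Sfmbt to 289 genes, and 0 of the 71 members is among them; of all tested genes 221, or 2.29%, are. By distance alone, 4 members (5.63%) start within 5000 bases of a summit, as do 5.14% of tested genes. The nearest is mRpS16, which shares its upstream region with cg, the gene to which the authors assigned the summit 399 bases from the start of mRpS16. The authors' values at that summit are 0.504 RPM (reads scaled to library size) for GFP-Sfmbt, 3.26 RPM for Pho and 0.378 RPM for untagged chromatin, 1 value per group with no replicate error. mRpS16 was at 35.0, 28.9 and 32.2 CPM in Sfmbt RNAi and 32.2, 28.8 and 26.6 CPM in mCherry RNAi, with overlapping groups, and did not pass (edgeR adjusted p = 0.369 for a log2 fold change of 0.13 ± 0.10 SE). The other members within that distance, mRpL49, mRpL4 and mRpL23, had log2 fold changes of 0.06, −0.04 and −0.15 and did not pass either.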

How the data were processed

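Per the file headers, the authors made the deposited fragment counts with featureCounts 1.6.3 (reverse-stranded pairs); fragments that map to several places or fall in several genes were not counted. STAR 2.7.2a, Bowtie2, deepTools 3.5.0 and the build BDGP6 are named in the submitters' processing notes. The authors' deposited peak table holds RPM per summit, rank scores, and per gene a log2 fold change, an adjusted p-value and mean TPM; how these were made is not given in the sources used here. Count columns lettered C were read as control and A as Sfmbt RNAi by elimination; the sign was the same as computed here for 93 of 93 genes with an adjusted p under 0.05 in the authors' deposited table. Unmatched count columns numbered 0.

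Counts were tested with edgeR 4.0.16 in R 4.3.3 (filterByExpr minimum 10, TMM, robust quasi-likelihood F-test, group as the only term, Benjamini-Hochberg at 0.05). In a trial on simulated counts, changes of 1.5-fold were often not called. The changed genes of the trial were drawn from tested genes in general, so it gives no rate for the members. Its first pass rule failed at 1.5-fold and was replaced. TPM were computed from counts and summed exon length. Of 17768 gene IDs 17670 matched a symbol. The labels call the replicates biological; p-values measure the spread between these libraries. Alternatives were other scalings, filters, DESeq2 1.42.0, the replicate block, a chorion covariate and leaving out each library. Spearman's rho across genes ran from 0.982 to 0.995 between libraries of a group, and no pair of libraries agreed within sampling noise.

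Members and gene lists were chosen with earlier results of these data known. The structural groups and the divergent pairs named were chosen after values were seen, and the split by chromosome arm was not planned. Named members are the called genes with the largest changes (up to 8 each way), the 4 highest and 4 lowest in TPM, the 2 called and 2 not called nearest the threshold, and paralogs; other genes are named to complete a group. Of 124 listed genes 121 were matched; GatC, mtTFB1, PolG2, Tim10 and Tim13 had 0 fragments. Promoter motifs and sequences were not used here.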

Additional observations from a re-analysis of the deposited data

How the results depend on the processing

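Of the 16 falls, 16 remained with DESeq2, 12 with all 3 other scalings and 7 in all 6 fits that left out 1 library (mRpL21, mRpL27, mRpL34, mRpL54, mRpS18A, mRpS23 and mRpS26); of the 3 rises, 3, 3 and 0 remained. Upper-quartile scaling called 5 members higher and 12 lower (29.4% of calls higher, against 15.8% with TMM), and split all genes into 1900 higher and 1615 lower, against 1470 and 1880 with TMM. With the chorion covariate 118 genes were called, with 0 members higher and 0 lower and a member median of −0.276; mRpL19 reversed to −0.0381, while all 16 falls kept their sign (−1.06 to −0.24) with larger errors. The member median was −0.0615 without the covariate, so the kept signs cannot tell whether the falls go with the chorion level. The cause of the changed folds was not tested. The summed member ratio was 1.03 without mitochondrial genome and chorion transcripts in the total. Leaving out 1 library gave 0 to 3 members higher, 8 to 16 lower and 1756 to 3295 genes in all, with member medians from −0.0728 to −0.0100. Same-numbered libraries deviated together with correlations of 0.432, 0.305 and 0.0729 for numbers 1 to 3, and only number 1 matched best with its own; whether all pass the limit of 0.1 depends on the prior count of the log values, since the last was 0.103 at 0.5, 0.0729 at 2 and 0.00235 at 10. The numbers were not taken as pairing the libraries, a choice made with the counts of the block fit in view. The values at other priors were added after seeing the data. With the replicate block 2 members were higher and 12 lower, and 2 and 12 of the calls remained; mRpS14, mRpS17, mRpS24, mRpS35 and mRpL1 lost theirs, as did tko, which is outside the 71. The planned search for promoter motifs was not run.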
